A study of Mus musculus with 35 samples.

Results

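The genes described here are the enzymes and transporters that carry fatty acids into mitochondria and oxidise them there, with the mitochondrial enzymes that oxidise acyl-CoA from branched-chain amino acids and propionyl-CoA. They were listed by name from the pathway and not by their values: 34 genes on 63 probesets of the array, of which 32 genes on 47 probesets were expressed, among 8626 expressed genes in all. A probeset counted as expressed at a mean above 5.0 on the log2 scale in at least 1 of the 8 groups. Ivd, the isovaleryl-CoA dehydrogenase of leucine breakdown, and Echdc3 did not pass, with highest group means of 4.1 and 3.1. Acsm3 at 5.3, Acad10 at 5.7 and Acad9 at 6.2 were the lowest members that passed.

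Each array held RNA from the whole length of the small intestine of 1 male mouse of 4 months. All mice had eaten a modified AIN76A diet, with olive oil in place of corn oil, for 2 weeks, were fasted for 4 h, and were killed 6 h after an oral gavage of 400 µl. The PPARα-null mice were of the 129S4/SvJae line and the wild-type mice of the 129S1/SvImJ line, so the loss of PPARα and the difference between these substrains cannot be told apart. WY14643, a synthetic PPARα agonist, was given as a 0.1% suspension in 0.5% carboxymethyl cellulose to 4 PPARα-null and 4 wild-type mice. EPA and DHA, the polyunsaturated fatty acids of fish oil, and OA, the monounsaturated fatty acid of olive oil, were given neat as triacylglycerols that carry a single kind of fatty acid. EPA groups held 5 PPARα-null and 5 wild-type mice, DHA groups 4 PPARα-null and 5 wild-type mice, and OA groups 4 of each. Mice without an agonist were not analysed here, and a genotype difference after an agonist therefore includes whatever difference was there before. In whole intestine, fewer cells of a type and less RNA per cell cannot be told apart.

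A long-chain fatty acid is first joined to coenzyme A, passed to carnitine to cross the inner mitochondrial membrane, and handed back to coenzyme A inside. Each round of β-oxidation then shortens it by an acetyl unit through a dehydrogenase, a hydratase, a second dehydrogenase and a thiolase, and the electrons of the first dehydrogenase leave through the electron transfer flavoprotein. Double bonds need extra isomerases and a reductase, and EPA, DHA and OA all carry double bonds. PPARα is a nuclear receptor that fatty acids and WY14643 activate, and it binds DNA together with RXR at direct repeats: a pair of AGGTCA hexamers in the same direction with any base (N) between them. Many genes of this pathway are textbook PPARα targets in liver, and absorptive enterocytes of the small intestine express the receptor too.

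The start regions of 5 members are shown because these genes stand for the main steps of the results below: entry (Cpt1a, Slc25a20), the first dehydrogenase (Acadvl, Acadm) and the trifunctional protein (Hadhb). Each runs from 250 bases before to 50 after the start given by the RefSeq table on GRCm38.p6. For Cpt1a that start lies 975 bases inside the outermost start annotated for the gene, and for the other 4 the starts coincide. Capitals mark an AGGTCA hexamer read on either strand, except for Hadhb, where capitals mark the 228 bases that its window shares with that of Hadha. The Cpt1a window is chr19:3323051-3323350 (+), Slc25a20 chr9:108661886-108662185 (+), Acadvl chr11:70015379-70015678 (−), Acadm chr3:153944594-153944893 (−) and Hadhb chr5:30155003-30155302 (+).
Cpt1a: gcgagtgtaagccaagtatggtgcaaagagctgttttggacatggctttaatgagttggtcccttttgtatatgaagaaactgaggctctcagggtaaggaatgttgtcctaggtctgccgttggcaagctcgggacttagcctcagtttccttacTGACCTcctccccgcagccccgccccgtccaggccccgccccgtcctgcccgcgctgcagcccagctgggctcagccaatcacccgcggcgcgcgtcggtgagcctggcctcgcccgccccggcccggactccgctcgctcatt
Slc25a20: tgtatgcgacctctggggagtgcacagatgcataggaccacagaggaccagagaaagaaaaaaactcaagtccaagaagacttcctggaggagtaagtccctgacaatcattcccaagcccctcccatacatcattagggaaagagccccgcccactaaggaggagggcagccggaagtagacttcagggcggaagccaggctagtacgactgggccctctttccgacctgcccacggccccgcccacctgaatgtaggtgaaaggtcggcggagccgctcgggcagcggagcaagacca
Acadvl: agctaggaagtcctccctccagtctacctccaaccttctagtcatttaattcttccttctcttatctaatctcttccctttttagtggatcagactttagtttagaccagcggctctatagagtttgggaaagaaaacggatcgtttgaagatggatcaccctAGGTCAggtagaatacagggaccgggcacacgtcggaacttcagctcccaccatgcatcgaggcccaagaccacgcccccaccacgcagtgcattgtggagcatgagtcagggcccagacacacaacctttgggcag
Acadm: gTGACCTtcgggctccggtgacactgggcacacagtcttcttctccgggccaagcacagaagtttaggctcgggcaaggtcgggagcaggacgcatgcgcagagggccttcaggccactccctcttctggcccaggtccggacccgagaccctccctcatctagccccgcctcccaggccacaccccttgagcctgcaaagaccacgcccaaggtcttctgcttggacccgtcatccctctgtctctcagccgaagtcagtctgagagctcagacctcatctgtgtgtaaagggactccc
Hadhb: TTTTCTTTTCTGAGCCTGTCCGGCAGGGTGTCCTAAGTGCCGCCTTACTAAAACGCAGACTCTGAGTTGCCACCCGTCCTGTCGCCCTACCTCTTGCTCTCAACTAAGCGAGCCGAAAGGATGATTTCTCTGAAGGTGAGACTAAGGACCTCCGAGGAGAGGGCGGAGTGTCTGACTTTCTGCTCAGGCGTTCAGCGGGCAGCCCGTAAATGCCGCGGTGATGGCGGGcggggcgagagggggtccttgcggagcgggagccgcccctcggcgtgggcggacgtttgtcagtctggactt
The hexamer lay 94 bases before the start used for Cpt1a, read as TGACCT, 87 before that of Acadvl, read as AGGTCA, and 249 before that of Acadm, read as TGACCT. Hadha and Hadhb stand head to head on opposite strands with starts 273 bases apart, the Hadha window being chr5:30154931-30155230 (−). Both strands of every window were searched for this direct repeat and for AGGTCA alone, which the repeat contains. None of the 31 windows found for 30 members held the direct repeat, against 13 of 32851 windows of all genes (0.04%). AGGTCA was in 7 of the 31 (22.6%), which belong to Cpt1a, Acadvl, Acadm, Echs1, Pcca and Echdc3, against 5340 (16.3%) of all. These are matches of letters in 300 bases and say nothing about binding elsewhere. Decr1, Acaa2, Acad9 and Crat had no entry in the table.

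All values are log2 expression estimates of single probesets, and a value is compared with other values of the same probeset only. Array medians lay between 2.83 and 2.88, and the number of arrays, 35, limits the precision. The labels were checked with the probeset for Cyp4a10 and Cyp4a31, fatty acid ω-hydroxylases that respond strongly to PPARα. It read 1.36 to 2.50 in 15 PPARα-null arrays and 8.15 to 12.75 in 17 wild-type arrays. The arrays labelled PPARα-null EPA replicate 5 (9.91), PPARα-null OA replicate 1 (10.61) and wild-type EPA replicate 5 (1.81) read like the other genotype. On the Ppara probesets, the genotypes without these arrays did not overlap on 3 of 3 after WY14643 and after EPA, on 2 of 3 after DHA and on 1 of 3 after OA, PPARα-null mice being lower. The probeset of highest mean read 8.19 to 8.95 in PPARα-null and 9.45 to 9.93 in wild-type mice after EPA, where the doubted PPARα-null array read 10.29 and the doubted wild-type array 8.14. The doubted PPARα-null OA array read 10.02 on it, where the genotypes overlapped after OA (8.50 to 9.20 in PPARα-null, 8.71 to 9.74 in wild-type mice). On the probeset that separated them after OA, PPARα-null mice read 5.40 to 6.02, wild-type mice 6.42 to 7.07 and this array 7.41. On probesets that separated the genotypes for their agonist, the 3 arrays were thus again on the side of the other genotype. The 3 arrays were kept under their labels, and values without them are given as well. Because they were doubted for reading against their genotype, leaving them out favours a difference between the genotypes. The WY14643 and DHA groups hold none of them. Enterocyte markers were high everywhere: the 10 measured had a summed level of 16.95 to 16.99 in PPARα-null and 16.98 to 17.03 in wild-type mice after WY14643, with Fabp1 (-0.34) and Fabp2 (-0.24) lower and Slc5a1 (0.47) higher in PPARα-null mice.

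After WY14643, 19 of the 32 expressed members were lower in PPARα-null than in wild-type mice and none was higher, at an adjusted p under 0.05 in limma. At an unadjusted p under 0.05 there were 22 lower and 3 higher, where 1955 of the 8626 expressed genes (22.7%) passed in either direction. Of all expressed genes, 4.13% were called lower and 3.43% higher. The members that differed most were the enoyl-CoA isomerase Eci1 and the carnitine carriers Slc25a20 and Slc22a5. On each gene's probeset of highest mean they were from 4.72-fold to 6.22-fold lower in PPARα-null mice. The median difference of the members was -0.87, against 0.06 over all expressed genes. The groups did not overlap for 22 members that were lower and for 1, Acsm3, that was higher, where 6.03% and 9.26% of all expressed genes did so. All members of the carnitine shuttle (6 of 6), of the steps for unsaturated fatty acids (3 of 3) and of electron transfer (3 of 3) were called, with 4 of 7 chain-length dehydrogenases and 3 of 5 later enzymes. None of the 6 members for branched-chain and propionyl-CoA breakdown and neither of the other 2 acyl-CoA enzymes was.

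The carnitine shuttle differed at every step. Slc22a5, the plasma membrane carnitine transporter OCTN2, read 9.45, 9.36, 9.77 and 9.84 in PPARα-null mice, against 11.82, 12.19, 12.02 and 11.34 in wild-type mice after WY14643. The lowest wild-type mouse was thus above the highest PPARα-null mouse by well over the spread within either group. The difference was -2.24 (95% CI -2.75 to -1.72), or 4.72-fold, with an adjusted p of 1.91e-07, and its other probeset gave -2.95. Slc25a20, the carrier that exchanges acylcarnitine for carnitine across the inner membrane, read 8.85, 8.94, 9.22 and 9.47 in PPARα-null mice, against 11.62, 11.73, 11.81 and 11.25 in wild-type mice. The groups stood apart, by -2.48 (-3.01 to -1.95) or 5.59-fold, adjusted p 6.44e-08. The other Slc25a20 probeset read 8.27, 8.51, 8.42 and 8.41 in PPARα-null mice, against 11.22, 11.47, 11.22 and 10.82 in wild-type mice.

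The 2 carnitine palmitoyltransferases moved less. Cpt1a, which makes acylcarnitine at the outer membrane and is the regulated entry step, read 9.69, 9.81, 9.86 and 9.56 in PPARα-null mice, against 11.09, 11.11, 10.99 and 10.54 in wild-type mice. Again no mouse of one genotype fell within the range of the other, and its 3 called probesets differed by -1.20 to -1.43. Cpt2, which reverses the reaction on the inner membrane, read 9.94, 10.14, 10.21 and 10.33 in PPARα-null mice, against 11.44, 11.41, 11.66 and 11.32 in wild-type mice, a difference of -1.30 (-1.64 to -0.96). Crat, the carnitine acetyltransferase for short chains, read 8.50, 8.97, 8.77 and 8.79 in PPARα-null mice, against 10.30, 10.63, 10.20 and 9.70 in wild-type mice. It was 2.74-fold lower in PPARα-null mice, with the wild-type values more widely spread than the PPARα-null ones. Mlycd, malonyl-CoA decarboxylase, which removes the inhibitor of Cpt1a, was the dimmest of the 6, at 6.03, 5.87, 6.44 and 6.36 in PPARα-null mice, against 7.34, 7.31, 7.67 and 6.90 in wild-type mice. Its difference was -1.13 (-1.51 to -0.75), or 2.19-fold.

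**Figure D1:**
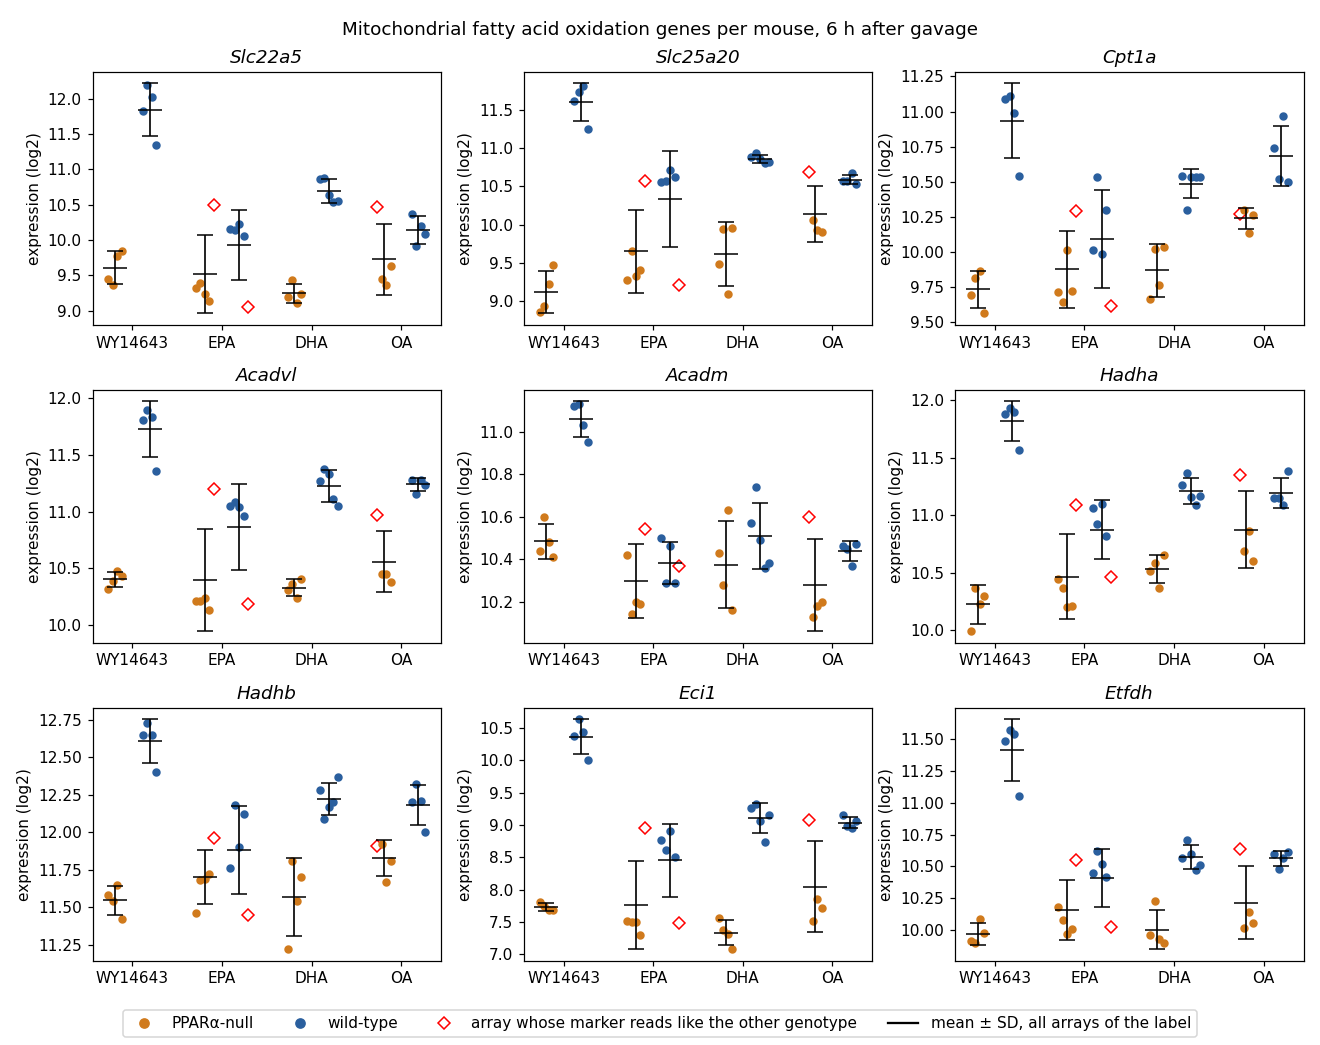
Log2 expression of 9 members from every step of long-chain oxidation (y axis, scaled for each gene), 1 point per mouse, for WY14643, EPA, DHA and OA (x axis), PPARα-null left of wild-type, with group means and SDs under the labels given (n = 4 or 5). Open diamonds are the 3 arrays whose Cyp4a10 probeset reads like the other genotype, such as PPARα-null EPA replicate 5 at 10.49 for Slc22a5, above its group's other mice at 9.13 to 9.39.

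The acyl-CoA dehydrogenases carry out the first oxidation of each round, each for a range of chain lengths, and those for long chains were lower in PPARα-null mice. Acadvl, for very long chains, read 10.32, 10.39, 10.48 and 10.43 in PPARα-null mice, against 11.81, 11.90, 11.84 and 11.36 in wild-type mice after WY14643. The PPARα-null mice were close together, and the fourth wild-type mouse was below the other wild-type mice but above every PPARα-null mouse, giving -1.32 (-1.69 to -0.96), or 2.50-fold. Acad11, which acts on long and very long chains, read 10.79, 10.81, 10.86 and 10.79 in PPARα-null mice, against 12.16, 12.35, 12.26 and 11.71 in wild-type mice, a 2.48-fold difference. Acadl, the long-chain enzyme, averaged 11.74 ± 0.06 in PPARα-null and 12.65 ± 0.11 in wild-type mice (SD, n = 4 each), and Acadm, the medium-chain enzyme, 10.48 ± 0.08 and 11.06 ± 0.08. Both were called, at 1.87-fold and 1.49-fold. Acads, the short-chain enzyme, averaged 6.44 ± 0.42 in PPARα-null and 8.05 ± 0.25 in wild-type mice, and its difference of -1.60 (-2.79 to -0.41) did not pass the test (adjusted p 0.1), since this probeset varied widely within other groups. Acad9, better known for the assembly of respiratory complex I, differed by 0.08 (-0.13 to 0.30), and Acad10 by 0.22 (-0.31 to 0.74).

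The mitochondrial trifunctional protein carries the later steps for long chains, its α subunit Hadha as hydratase and dehydrogenase and its β subunit Hadhb as thiolase. Hadha read 9.99, 10.37, 10.23 and 10.30 in PPARα-null mice, against 11.88, 11.93, 11.90 and 11.57 in wild-type mice after WY14643. The genotypes were clearly apart, by -1.60 (-1.92 to -1.28) or 3.03-fold, adjusted p 2.09e-08. Hadhb, which shares its start region with Hadha, averaged 11.55 ± 0.10 in PPARα-null and 12.61 ± 0.15 in wild-type mice (SD, n = 4 each), and its 3 expressed probesets that were called differed by -1.06 to -1.91. Acaa2, the thiolase for shorter chains, was lower by a smaller amount, -0.75 (-1.05 to -0.44), or 1.68-fold. The soluble enzymes for short and medium chains did not pass: the hydratase Echs1 averaged 10.01 ± 0.25 in PPARα-null and 9.74 ± 0.22 in wild-type mice, and the dehydrogenase Hadh 13.75 ± 0.09 and 13.73 ± 0.03. For Hadh the interval of the difference, -0.09 to 0.12, was narrow.

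The enzymes that unsaturated chains need in addition differed by a median of -1.94, the largest of any step. Eci1, the enoyl-CoA isomerase that moves a double bond to where the next step can act, read 7.80, 7.74, 7.68 and 7.68 in PPARα-null mice, against 10.38, 10.64, 10.44 and 10 in wild-type mice after WY14643. The PPARα-null values were nearly the same in the 4 mice. The difference of -2.64 (-3.24 to -2.04), or 6.22-fold, was the largest of the 32 members on the probesets shown. Its relative Eci2, found in peroxisomes as well, read 9.52, 9.66, 9.82 and 9.86 in PPARα-null mice, against 11.51, 11.98, 11.83 and 11.28 in wild-type mice, or 3.84-fold. Decr1, the dienoyl-CoA reductase needed for polyunsaturated chains, averaged 10.22 ± 0.11 in PPARα-null and 11.13 ± 0.16 in wild-type mice, or 1.88-fold.

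Electron transfer from the dehydrogenases to the respiratory chain followed with unequal sizes. Etfdh, the membrane oxidoreductase that passes the electrons to ubiquinone, read 9.92, 9.90, 10.09 and 9.98 in PPARα-null mice, against 11.48, 11.57, 11.54 and 11.05 in wild-type mice. It was 2.71-fold lower in PPARα-null mice, with the smallest adjusted p of the probesets shown, 9.95e-09. The subunits of the flavoprotein itself were called at 1.80-fold for Etfb and 1.22-fold for Etfa. The Etfa call, at -0.28 with an adjusted p of 0.034, was lost on leaving out any of 5 single arrays, with an adjusted p of up to 0.148 without PPARα-null WY14643 replicate 4. Wild-type WY14643 replicate 4 was the lowest wild-type mouse after WY14643 for each of the 12 members given mouse by mouse, and without it 19 members were again lower in PPARα-null mice.

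The members for branched-chain and propionyl-CoA breakdown had a median difference of 0.04 after WY14643. Acadsb and Acad8, the dehydrogenases of isoleucine and valine breakdown, differed by 0.07 (-0.28 to 0.42) and 0.02 (-0.24 to 0.28). Auh, the hydratase of leucine breakdown, differed by -0.21 (-0.61 to 0.18) and Hsd17b10, a dehydrogenase of isoleucine breakdown, by 0.13 (0.01 to 0.24). The subunits of propionyl-CoA carboxylase pointed opposite ways without passing the test: Pcca averaged 7.31 ± 0.23 in PPARα-null and 6.96 ± 0.10 in wild-type mice (adjusted p 0.064), and Pccb 9.61 ± 0.11 and 9.83 ± 0.04 (adjusted p 0.18). Of the other 2 members, Echdc2 differed by -0.48 (-0.78 to -0.17, adjusted p 0.053). Acsm3, a medium-chain acyl-CoA synthetase, averaged 5.31 ± 0.32 in PPARα-null and 4.79 ± 0.35 in wild-type mice (adjusted p 0.19), close to the level counted as expressed.

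**Figure D2:**
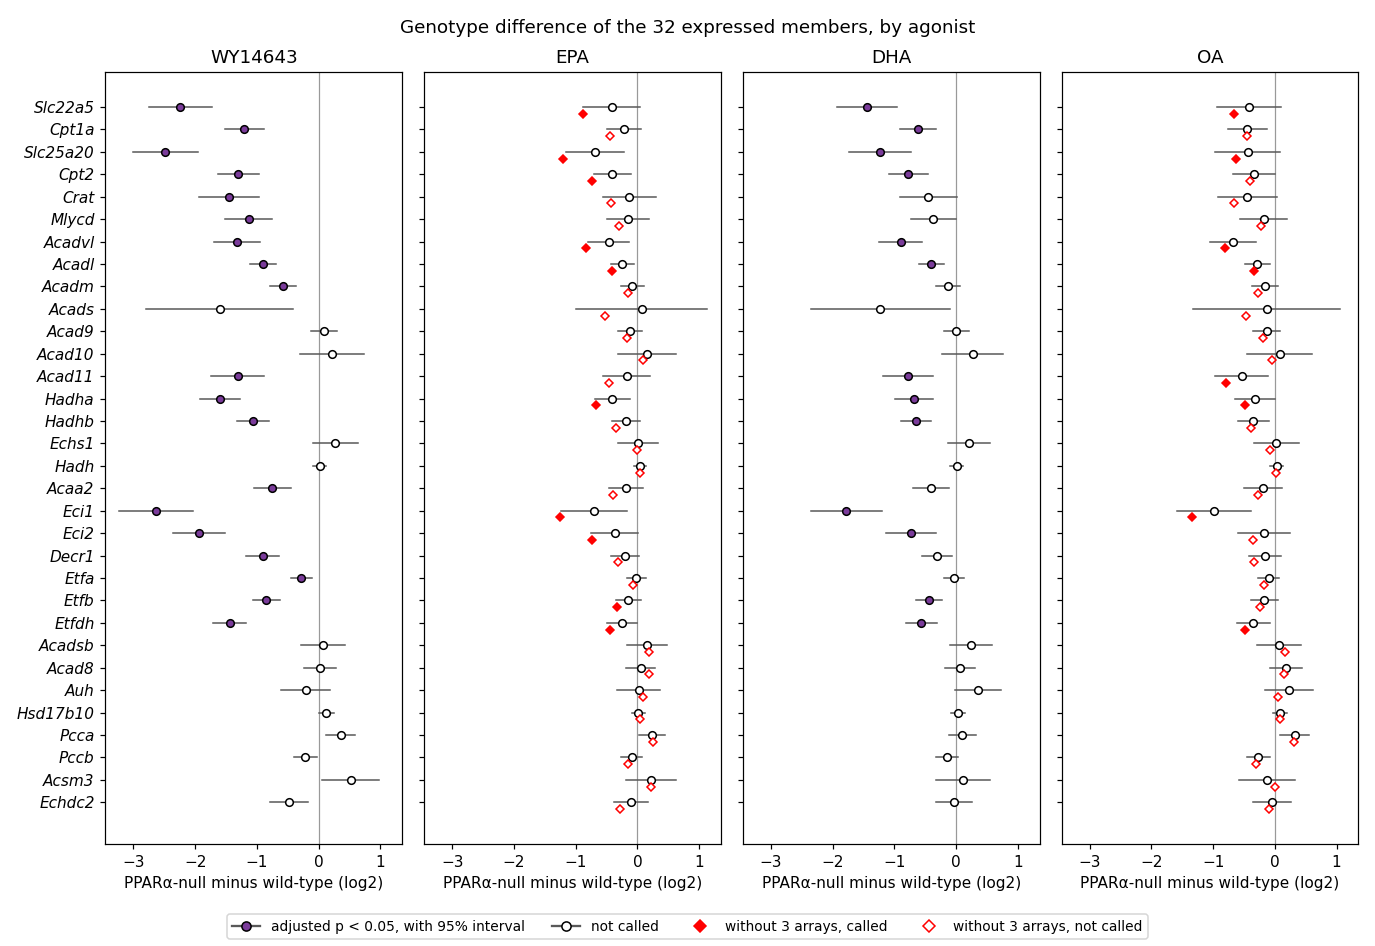
PPARα-null minus wild-type difference in log2 expression (x axis) of the 32 expressed members (y axis, by step) after WY14643, EPA, DHA and OA, with 95% confidence intervals, filled where the probeset shown passed an adjusted p of 0.05, and for EPA and OA the difference without the 3 doubted arrays as a red diamond. After WY14643 the carnitine shuttle lies between -2.48 and -1.13 and the branched-chain members between -0.21 and 0.35. Decr1 after DHA was called on another probeset than the one drawn.

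After DHA, 14 members were lower in PPARα-null than in wild-type mice and none was higher, where 4.49% of all expressed genes were called lower and 3.71% higher. At an unadjusted p under 0.05 there were 17 lower and 0 higher, with 2365 expressed genes (27.4%) in either direction. All 14 were among the 19 called after WY14643, 73.7% of that list. The same overlap over all expressed genes was not computed. The 4 genotype comparisons use different mice but share 1 estimate of the spread. The members' median difference was -0.38, against 0.01 over all expressed genes, and 13 members did not overlap between the groups, where 3.77% of all expressed genes were lower in that way. Eci1 read 7.56, 7.37, 7.31 and 7.08 in PPARα-null mice, against 9.27, 9.32, 9.06, 8.73 and 9.15 in wild-type mice. On the probesets shown Eci1 again led, at -1.78 (-2.35 to -1.21) or 3.43-fold, adjusted p 0.000668. Slc22a5 read 9.19, 9.43, 9.11 and 9.24 in PPARα-null mice, against 10.86, 10.88, 10.63, 10.53 and 10.55 in wild-type mice, or 2.72-fold. The other Slc22a5 probeset read 6.56, 6.51, 6.18 and 6.33 in PPARα-null mice, against 8.82, 9, 8.13, 8.08 and 8.33 in wild-type mice. On that probeset the genotypes lay further apart than for Eci1. Slc25a20 read 9.48, 9.94, 9.09 and 9.96 in PPARα-null mice, against 10.88, 10.93, 10.86, 10.80 and 10.82 in wild-type mice. The wild-type mice were close together and the PPARα-null mice more spread, and the difference was -1.24 (-1.74 to -0.74), or 2.36-fold.

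The other members called after DHA had smaller differences. They ran from -0.90 for Acadvl through Cpt2 (-0.78), Acad11 (-0.78), Eci2 (-0.74), Hadha (-0.68), Hadhb (-0.66), Cpt1a (-0.62), Etfdh (-0.57) and Etfb (-0.44) to -0.40 for Acadl. Decr1 was called on its other probeset, at -0.66 (adjusted p 0.029), and not on the one of highest mean, at -0.31 (adjusted p 0.13). Crat, Mlycd, Acadm, Acaa2 and Etfa, called after WY14643, were not called after DHA, with differences of -0.45, -0.37, -0.14, -0.41 and -0.04. Leaving out PPARα-null DHA replicate 3 ended the calls of Acadl (adjusted p 0.104), Etfb (0.0688) and Eci2 (0.0886), and that of Cpt1a on the probeset shown (0.0518) but not on every probeset. The call of Decr1 was lost on leaving out any of 6 single arrays. Eci2 was also lost without PPARα-null DHA replicate 1 (0.0715) and Acad11 without PPARα-null DHA replicate 4 (0.0546). Of the cell type markers, Fabp1 (-0.20), Fabp2 (-0.14) and Cidec (-0.83) were lower and Anpep (0.44), Lct (0.44) and Slc5a1 (0.24) higher in PPARα-null mice after DHA, and their part in the members' differences was not tested.

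After EPA no member was called between the genotypes, and no expressed gene at all (0% in either direction). At an unadjusted p under 0.05 there were 12 members and 1044 expressed genes (12.1%). The 3 doubted arrays bear on these values directly, since 2 of them are EPA arrays. Eci1 read 7.51, 7.50, 7.50, 7.30 and 8.96 in PPARα-null mice, against 8.77, 8.62, 8.90, 8.51 and 7.48 in wild-type mice after EPA. The last mouse of each list is the doubted array, and each lay within or near the range of the other genotype. With all arrays the difference was -0.70 (adjusted p 0.44), and without the 3 arrays it was -1.25 (-1.50 to -0.99, adjusted p 2.09e-07). Slc25a20 read 9.27, 9.66, 9.33, 9.40 and 10.57 in PPARα-null mice, against 10.55, 10.57, 10.71, 10.62 and 9.21 in wild-type mice, with the same 2 arrays apart. Its difference was -0.69 with all arrays and -1.20 without the 3. Without them 13 members were lower in PPARα-null mice after EPA, where 1.54% of all expressed genes were called lower. These included Slc22a5 (-0.88), Acadvl (-0.84), Eci2 (-0.74), Cpt2 (-0.73) and Hadha (-0.67).

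After OA no member was called either, where 0.336% of all expressed genes were called lower and 0.162% higher. At an unadjusted p under 0.05 there were 12 members and 1297 expressed genes (15%). Eci1 read 9.08, 7.51, 7.86 and 7.72 in PPARα-null mice, against 9.15, 8.98, 8.96 and 9.06 in wild-type mice after OA. The first PPARα-null mouse, the doubted array, lay among the wild-type mice and the other PPARα-null mice below them all. The difference was -0.99 (adjusted p 0.14) with all arrays and -1.34 (-1.62 to -1.06, adjusted p 3.57e-07) without the 3. Without them 10 members were lower in PPARα-null mice after OA, where 1.33% of all expressed genes were. On the probesets shown, Acadvl (-0.82), Acad11 (-0.79), Slc22a5 (-0.66) and Slc25a20 (-0.62) followed Eci1. With all arrays 5 members that were lower and 2 that were higher did not overlap after OA, where 3.74% and 2.90% of all expressed genes did so.

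With the 3 arrays left out, 20 members were lower in PPARα-null mice after WY14643 (4.54% of all expressed genes) and 15 after DHA (5.21%). In that setting 9 members were called after all 4 agonists: Slc22a5, Cpt1a, Slc25a20, Acadvl, Acadl, Hadha, Hadhb, Eci1 and Etfdh. They span the shuttle, the very-long-chain and long-chain dehydrogenases, the trifunctional protein, the isomerase and the exit of electrons. This setting was chosen after the values were seen, and with all arrays no member was called after all 4. The share of all expressed genes called after all 4 agonists was not computed, so the 9 have no background beside them.

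Whether the genotype difference depended on the agonist was tested as a difference of differences. It was larger in the negative direction after WY14643 than after OA for 13 members, where 0.985% of all expressed genes were called in that direction and 0.313% in the other. Slc25a20 led, with -2.04 (-2.79 to -1.29, adjusted p 0.0023), followed by Slc22a5 at -1.82, Eci2 at -1.76, Eci1 at -1.64 and Hadha at -1.28. Etfdh (-1.09), Cpt2 (-0.96), Decr1 (-0.75), Hadhb (-0.71), Etfb (-0.68) and Acadl (-0.62) were called too, and Cpt1a (-1.15) and Crat on a probeset other than the one of highest mean. That Crat probeset was above the level counted as expressed, among the 4 groups compared, only in wild-type mice after WY14643, so no size is given. Several of these calls hung on 1 array: the call was lost on leaving out any of 27 of the 35 arrays for Crat, 14 for Eci1, 10 for Cpt2, 8 for Decr1, 4 for Acadl and 2 for Etfb. The OA groups hold 1 doubted array, and without the 3 there were 13 members again (1.02% of all expressed genes), with Acadvl in place of Crat. Against DHA, the difference after WY14643 was called for 4 members, where 0.429% of all expressed genes were: Hadha (-0.92), Etfdh (-0.87), and on other probesets Cpt1a (-1.0) and Hadhb (-0.81). Without the 3 arrays there were 10 members (0.881% of all expressed genes). The call was lost on leaving out any of 24 single arrays for Hadha, 12 for Cpt1a, 9 for Hadhb and 2 for Etfdh, and leaving out wild-type WY14643 replicate 2 or 3 left no member called. For DHA against OA and EPA against OA no member was called, and no expressed gene (0%), with 720 and 682 genes (8.35% and 7.91%), 3 and 0 of them members, at an unadjusted p under 0.05. All these comparisons share the OA, WY14643 or DHA mice.

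Within a genotype, WY14643 was set against OA, which differs from it in dose, in vehicle and in carrying fat, so the agonist and the meal cannot be told apart. In wild-type mice 23 members were higher after WY14643 than after OA and none was lower, and at an unadjusted p under 0.05 there were 25 and 0, with 3926 expressed genes (45.5%) in either direction. The background was high, with 16.2% of all expressed genes called higher and 17.7% lower. Slc22a5 averaged 11.85 ± 0.37 after WY14643 and 10.14 ± 0.19 after OA (SD, n = 4 each), a difference of 1.70 (1.19 to 2.22). Eci2 was higher by 1.49, Eci1 by 1.33, Acad11 by 1.32, Slc25a20 by 1.02 and Decr1 by 0.96. Acads rose most on the probeset shown, by 2.03 (0.84 to 3.22, adjusted p 0.00941), with 8.05 ± 0.25 after WY14643 and 6.02 ± 1.06 after OA. Members outside long-chain oxidation rose too, among them Auh by 1.06 and Echdc2 by 0.73, and Acad10 was at least 1.35-fold higher, its OA mean being under the level counted as expressed. Cpt1a, at 10.93 ± 0.27 after WY14643 and 10.68 ± 0.22 after OA, was not called (0.25, -0.06 to 0.56), nor was Acadl (0.21, 0.01 to 0.42). The call of Acadvl (0.49, adjusted p 0.041) was lost on leaving out any of 7 single arrays, that of Cpt2 any of 5, Etfa 4, Pcca 3 and Acad10 2.

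In PPARα-null mice the same comparison gave 6 of the 32 members lower and 6 higher, where 13.3% and 18.3% of all expressed genes were. These counts are near those shares and do not set the members apart from other genes. The lower ones were Slc25a20 (-1.02), Hadha (-0.65), Cpt1a (-0.51), Cpt2 (-0.49), Acadl (-0.40) and Hadhb (-0.50, on a probeset other than that of highest mean). Slc25a20 averaged 9.12 ± 0.28 after WY14643 and 10.14 ± 0.37 after OA in PPARα-null mice, and the groups did not overlap. The higher ones were Acad10 (at least 1.57-fold), Acsm3 (at least 1.24-fold), Auh (0.62), Pcca (0.39), Hadh (0.25) and, on its other probeset, Acad11 (0.65). Slc22a5, which rose in wild-type mice, differed by -0.12 (-0.63 to 0.40). So Slc25a20, Hadha and Cpt2 were lower after WY14643 than after OA in PPARα-null mice but higher in wild-type mice (by 1.02, 0.63 and 0.47), and for all 3 the difference between the genotypes was itself called, as given above. The calls of Cpt2 were the least stable of these, lost on leaving out any of 3 arrays in PPARα-null mice, 5 in wild-type mice and 10 for the difference between the genotypes. In PPARα-null mice, those of Acad11, Auh, Acad10 and Pcca were lost on leaving out any of 4, 2, 2 and 1 arrays. All 8 pancreatic acinar markers were lower after WY14643 than after OA in PPARα-null mice, with a summed level of 12.34 to 14.17 after WY14643 and 15.98 to 16.98 after OA. Of 5 expressed markers of crypt proliferation, 3 were lower in PPARα-null mice and 4 in wild-type mice, with summed levels of 12.13 to 12.27 after WY14643 and 12.32 to 12.39 after OA in wild-type mice. Goblet cell marker Agr2 was lower after WY14643 than after OA in both genotypes, with differences of -0.84 in PPARα-null and -1.0 in wild-type mice. In PPARα-null mice Chga (0.50), Chgb (0.35) and Gip (0.41) of the enteroendocrine markers, Lct (0.57), Slc5a1 (0.27) and Vil1 (0.15) of the enterocyte markers, the Paneth marker Lyz1 (0.15) and the goblet marker Tff3 (0.13) were higher after WY14643. Fabp1 (-0.18), Fabp2 (-0.12), Cidec (-0.90) and the smooth muscle marker Acta2 (-0.37) were lower there, and in wild-type mice Lct (0.41) and Apob (0.88) were higher. The part of these cells and tissues in the members' differences was not tested.

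**Figure D3:**
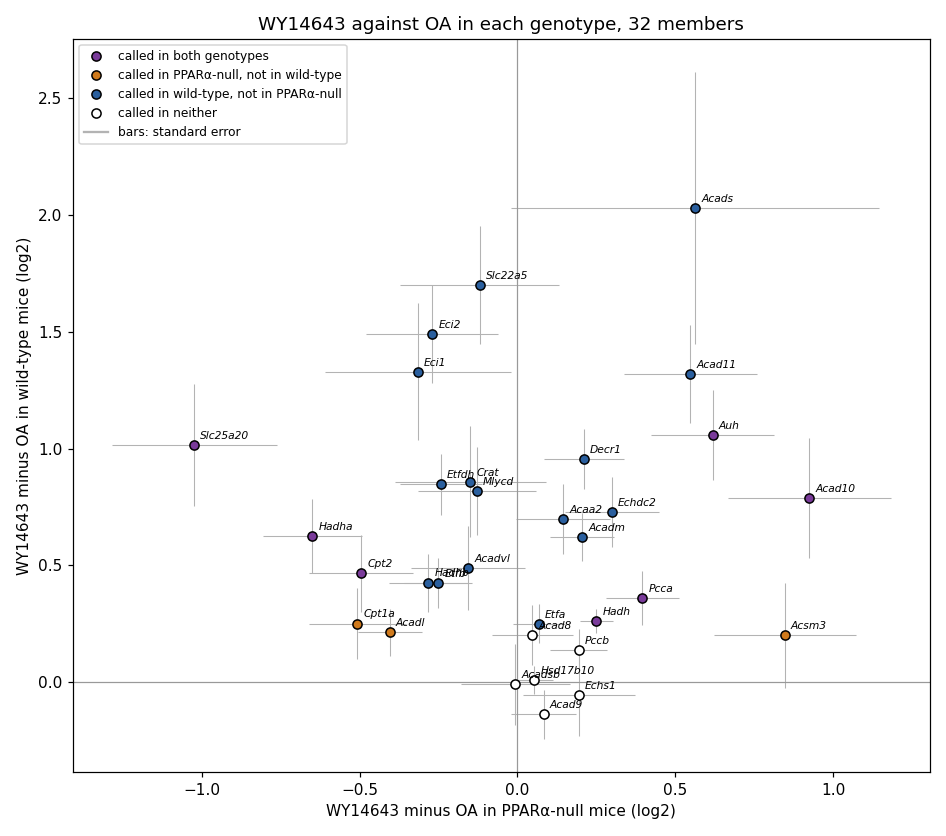
WY14643 minus OA difference in log2 expression in PPARα-null mice (x axis) and in wild-type mice (y axis), 1 point per member (32), coloured by the genotype in which the probeset shown passed an adjusted p of 0.05, with standard errors as bars. Slc25a20 lies at -1.02 in PPARα-null and 1.02 in wild-type mice, while Auh lies at 0.62 and 1.06. Hadhb and Acad11 were called in PPARα-null mice on probesets not drawn.

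The 3 triacylglycerols were given at the same volume, so they were compared directly, as 3 pairs in each genotype. In wild-type mice 2 of the 32 members (6.25%) were lower after EPA than after OA, where 4.36% of all expressed genes were lower and 3.65% higher. The share of members was thus near that of all genes. Cpt1a read 10.01, 10.53, 9.98, 10.30 and 9.61 after EPA, against 10.74, 10.52, 10.97 and 10.50 after OA, and only the second EPA mouse reached the range of the OA mice. The difference was -0.59 (-0.89 to -0.30, adjusted p 0.0099), and -0.47 (adjusted p 0.027) without the 3 doubted arrays. On this probeset it was lost without wild-type OA replicate 3 (adjusted p 0.0613), while another Cpt1a probeset was still called. Crat read 9.00, 8.52, 8.83, 8.33 and 8.09 after EPA, against 9.24, 9.33, 9.29 and 9.55 after OA. The groups did not overlap, and the difference was -0.80 (-1.26 to -0.34, adjusted p 0.029), lost on leaving out any of 6 single arrays.

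DHA and OA, which differ in chain length and in the number of double bonds, gave no called member in wild-type mice, where 3.15% of all expressed genes were lower and 1.40% higher after DHA, and 2 members and 1541 expressed genes (17.9%) had an unadjusted p under 0.05. The largest difference after that of Acads was for Slc22a5, at 0.55 (0.06 to 1.03, adjusted p 0.28), and it was called without the 3 doubted arrays, where 1.79% of all expressed genes were higher. For Hadha and Eci1 the intervals of the difference were -0.29 to 0.32 and -0.50 to 0.64, so a change within these bounds could not be seen with these numbers of mice. EPA and DHA, both polyunsaturated, gave no called member either, where 0.255% of all expressed genes were lower and 0.464% higher after EPA. There 14 members and 1458 expressed genes (16.9%) had an unadjusted p under 0.05, and Slc22a5 had the largest difference, -0.76 (-1.22 to -0.30, adjusted p 0.12). In PPARα-null mice no member was called in any of the 3 pairs, where 1.62% and 1.53% of all expressed genes were lower and higher for EPA against OA, 0.985% and 0.325% for DHA against OA, and 0.151% and 0.568% for EPA against DHA. Members with an unadjusted p under 0.05 numbered 5, 8 and 1 in these pairs, and expressed genes 1642 (19%), 1445 (16.8%) and 1055 (12.2%). Acads, at 4.05 ± 0.42 after DHA and 5.88 ± 0.74 after OA in PPARα-null mice, had the largest difference, with an adjusted p of 0.14. Without the 3 arrays Cpt1a, Hadha and Hadhb were lower after EPA than after OA in PPARα-null mice, where 1.82% of all expressed genes were.

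**Figure D4:**
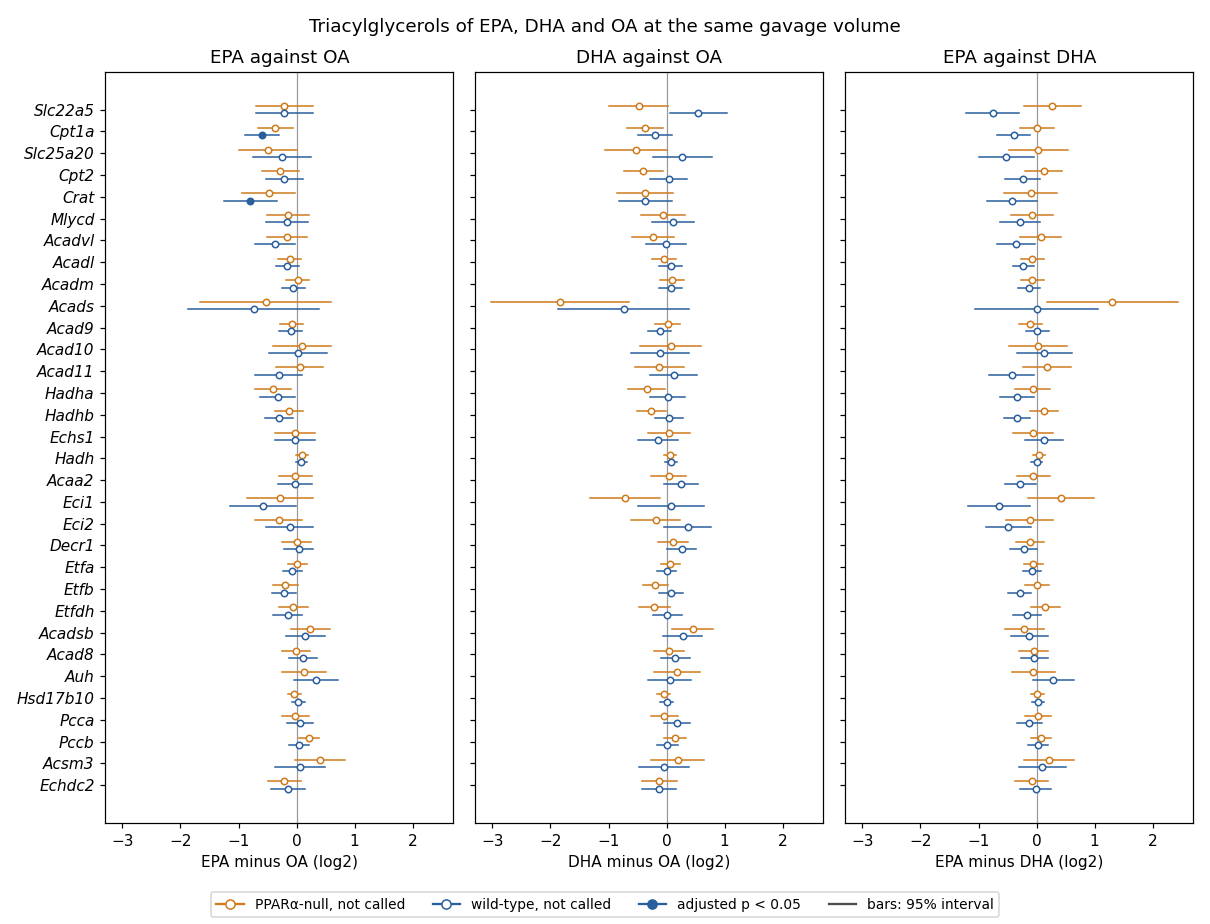
Differences in log2 expression between the triacylglycerols of EPA, DHA and OA (x axis, named in each panel) for the 32 members (y axis), with 95% confidence intervals, PPARα-null above wild-type in each row, filled where called. In wild-type mice Cpt1a (-0.59) and Crat (-0.80) passed the test for EPA against OA, and no other member passed in any panel.

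The members also varied among mice of the same group. As deviations from the group mean over 35 arrays, Slc22a5 was most like Acadvl (r = 0.94), Slc25a20 most like Cpt2 (r = 0.93) and Acadl most like Etfb (r = 0.89), while the median over all pairs of members was 0.30. Over the 32 arrays without the doubted ones the last 2 pairs kept their partners at 0.78 and 0.72, and the median of all pairs was 0.16. Hadha and Hadhb, with their shared start region, had an r of 0.34 over 35 and -0.17 over 32 arrays. This was with the Hadhb probeset of highest mean, which read 11.22, 11.81, 11.54 and 11.70 in PPARα-null mice after DHA. Hadha read 10.51, 10.58, 10.37 and 10.65 in these mice, and another Hadhb probeset 11.09, 11.20, 10.90 and 11.25. The r of Hadha with that other probeset was not computed, so the low r holds for 1 probeset only. On their probesets of highest mean, Cpt1a and Hadhb were most like each other in both, at 0.81 and 0.72. In wild-type EPA replicates 1 to 4 these read 10.01, 10.53, 9.98 and 10.3 for Cpt1a and 11.76, 12.18, 11.9 and 12.12 for Hadhb. Another Cpt1a probeset went the same way (7.98, 8.47, 7.98 and 8.31), but another Hadhb probeset did not (11.52, 11.52, 11.64 and 11.55). The remaining Cpt1a probeset stayed between 9.9 and 10.1. The r of other probesets was not computed, so the likeness holds for those shown. The points share arrays and their normalization, so these values are a description.

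Genes around the pathway were followed in lists set by function. Of 6 expressed genes of fatty acid activation and malonyl-CoA, 3 were lower in PPARα-null mice after WY14643. Acacb, the mitochondrial acetyl-CoA carboxylase whose product inhibits Cpt1a, averaged 2.48 in PPARα-null and 6.35 in wild-type mice (adjusted p 9.95e-09), so it was under the level counted as expressed in PPARα-null mice. The acyl-CoA synthetases Acsl3 (-1.22) and Acsl5 (-0.22) were lower too. Of 6 genes of carnitine synthesis and acylcarnitine export, Crot, the peroxisomal carnitine octanoyltransferase, was lower (-1.36, adjusted p 7.77e-07), as was Aldh9a1 (-0.36) of carnitine synthesis, and the carnitine exporter Slc16a9 was higher (0.79). Among 7 genes of ketone bodies and the pyruvate switch, the kinase Pdk3 was lower (-0.95) and the ketone-using transferase Oxct1 higher (0.77). Of 12 further genes of branched-chain breakdown, Dbt (0.88) and Mccc1 (0.59) were higher. None of 16 genes that mark mitochondrial content, such as respiratory chain and import subunits, was called in this comparison (4 at an unadjusted p under 0.05), and their median difference was 0.05, against 0.06 over all expressed genes and -0.87 over the members. After DHA, Cycs and Hspd1 of these were lower and Tomm20 higher in PPARα-null mice, Crot (-0.63) and the carnitine synthesis enzyme Bbox1 (-1.21) were lower, and Pdk2 was higher (1.00) where Pdk3 was lower (-0.69). In wild-type mice, Crot (1.19) and the pyruvate dehydrogenase kinases Pdk4 (1.72) and Pdk2 (1.52) were higher after WY14643 than after OA, and Acacb averaged 6.35 after WY14643 and 3.14 after OA. The transporter Slc22a4 averaged 5.43 after WY14643 and 3.96, under the level counted as expressed, after OA. Acsl4 (-1.33), Acsl5 (-0.48) and Bbox1 (-0.80) were lower after WY14643 there. The acyl-CoA synthetase Acsm5 was called higher after WY14643 in both genotypes. It averaged 6.03 after WY14643 and 3.33 after OA in wild-type mice, and 6.36 and 3.71 in PPARα-null mice. Both OA means were under the level counted as expressed. Slc16a9 was higher after WY14643 too, by 0.92 in wild-type and 0.67 in PPARα-null mice. In PPARα-null mice Pdk2 was higher too (1.32, adjusted p 0.00296), Acsl4 (-0.63), Acsl5 (-0.43) and Bbox1 (-0.65) were lower, and Slc22a4 averaged 5.09 after WY14643 and 3.80 after OA (adjusted p 0.00726). Of the 16 mitochondrial content genes, 5 were lower and 1 higher after WY14643 than after OA in wild-type mice. Of the 12 further branched-chain genes, 1 was lower and 4 were higher. Of all expressed genes 17.7% were lower and 16.2% higher there. In PPARα-null mice the mitochondrial content list had 2 lower and 4 higher, and the branched-chain list 0 and 4. Of all expressed genes 13.3% were lower and 18.3% higher in that comparison.

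Markers of other cell types were read between PPARα-null and wild-type mice after WY14643. No marker of goblet, Paneth, crypt, smooth muscle, immune or fibroblast and endothelial cells was called in limma, and 0 had an unadjusted p under 0.05. Of 6 expressed enteroendocrine markers, Chga, Chgb and Gip were higher in PPARα-null mice, with summed levels of 12.95 to 13.17 in PPARα-null and 12.46 to 12.95 in wild-type mice. Of 4 adipocyte markers 3 were below the level counted as expressed, and Cidec, a lipid droplet protein, was lower (-1.21). The pancreatic list had a summed level of 12.34 to 14.17 in PPARα-null and 13.42 to 15.45 in wild-type mice, with none of its 8 genes called and 0 at an unadjusted p under 0.05. The part of these cells in the members' differences was not tested.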

How the data were processed

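Small intestinal RNA was hybridised to Affymetrix whole-genome mouse arrays, 1 mouse per array. The deposited values are log2 expression, computed by the authors with GCRMA, which corrects background by probe sequence, normalises quantiles and summarises probes, so values of different arrays are comparable and low values are compressed. They were used as deposited, from -0.17 to 15.03, for 45101 probesets, of which 64 controls were left out. No 2 arrays were copies (highest correlation 0.9957).

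A model of 8 group means over all 35 arrays was fitted with limma 3.58.1 in R 4.3.3, with an intensity trend in the prior, with the Benjamini-Hochberg adjustment taken over 15384 expressed probesets. The methods name an unadjusted p under 0.01 from a Bayesian test, kept as an alternative. A gene was called when any expressed probeset had an adjusted p under 0.05. Levels shown are those of the expressed probeset of highest mean. Differences are PPARα-null minus wild-type or first agonist minus second. Where 1 group was under 5.0, a fold was computed against 5.0 and given as at least that size. The steps were tested on simulated data.

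The members, lists and tests were chosen with earlier results of these data known. Named were all members, with values per mouse for the 12 with the largest called genotype differences. For the other lists, up to 4 called genes a list were planned. The text departs from this, so a gene of these lists left unnamed may have been called. Values of Eci1, Slc22a5 and Slc25a20 after other agonists, and of Cpt1a and Crat in the EPA comparison, were added after being seen.

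There were 14 alternatives, among them other filters, normalizations, priors and leaving out each array, and 1 added after seeing the data, leaving out the 3 doubted arrays. In no pair of groups compared did every array correlate best with its own number in the labels. For EPA and DHA in PPARα-null mice, replicates 1, 2 and 4 did so (0.254 to 0.396). Replicate 3 did not (0.116, against 0.321 with another number). The blocked fit changed no call for this pair. Nothing states separate litters or hybridisation batches, and p-values measure the spread between these mice. Promoters came from RefSeq (GRCm38.p6).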

Additional observations from a re-analysis of the deposited data

Results flagged for a closer look

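Of 256 groups of values tested, 33 held a mouse far from the rest of its group, where chance gives 12.8. Of these, 20 were on the 3 doubted arrays and 13 were not.

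On PPARα-null EPA replicate 5, 9 members lay above the rest of the group: Slc22a5 at 10.49, Crat at 9.17, Acadvl at 11.2, Acadl at 12.46, Acad11 at 11.07, Hadha at 11.09, Eci1 at 8.96, Eci2 at 10.57 and Etfb at 10.44. On wild-type EPA replicate 5, Slc22a5 at 9.05, Slc25a20 at 9.21, Cpt2 at 10.08, Acadvl at 10.19, Eci1 at 7.48, Eci2 at 9.45 and Echdc2 at 6.6 lay below the rest. On PPARα-null OA replicate 1, Acadvl at 10.97, Acadl at 12.32, Acadm at 10.6 and Eci2 at 10.53 lay above the rest. These arrays are the ones whose Cyp4a10 probeset reads like the other genotype, and whether mice, RNA or labels were exchanged was not tested.

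On wild-type WY14643 replicate 4, Acadvl at 11.36, Hadha at 11.57 and Etfdh at 11.05 lay below the rest of the group, whose other mice were at 11.81 to 11.9, 11.88 to 11.93 and 11.48 to 11.57. Crat at 9.06 and Acad9 at 5.92 stood apart on PPARα-null DHA replicate 3 and Etfdh at 10.23 on PPARα-null DHA replicate 2. The others were Cpt1a at 10.3 on wild-type DHA replicate 2, Acadm at 10.37 on wild-type OA replicate 3, Acad8 at 5.9 on wild-type OA replicate 4, Acad10 at 6.55 on PPARα-null WY14643 replicate 3, Pcca at 7.1 on wild-type WY14643 replicate 3, Acadsb at 5.75 on wild-type EPA replicate 3 and Hsd17b10 at 9.22 on wild-type EPA replicate 2.

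The genotype difference itself differed between WY14643 and OA, by a test of that difference, for Slc22a5 (-1.82), Slc25a20 (-2.04), Cpt2 (-0.96), Acadl (-0.62), Hadha (-1.28), Hadhb (-0.71), Eci1 (-1.64), Eci2 (-1.76), Decr1 (-0.75), Etfb (-0.68) and Etfdh (-1.09), and between WY14643 and DHA for Hadha (-0.92) and Etfdh (-0.87). The calls against OA were lost on leaving out any of 14 single arrays for Eci1, 10 for Cpt2, 8 for Decr1, 4 for Acadl and 2 for Etfb, and those against DHA any of 24 for Hadha and 2 for Etfdh. Hadhb against OA was called on other probesets too, and -0.71 is that of the probeset with the highest mean.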

How the results depend on the processing

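Counts of called members after WY14643 and DHA between the genotypes, and for WY14643 against OA in wild-type mice, stayed within 1.5 times of the main count under every alternative run, except for members higher in PPARα-null mice after WY14643 (0), of which there were 1 without a filter, 1 with log2 of the linear value plus 32, 1 at an unadjusted p under 0.01 and 2 with array weights. Without the 3 doubted arrays, members lower in PPARα-null mice numbered 13 after EPA and 10 after OA, against 0 with all arrays. At an unadjusted p under 0.01 they numbered 5 after EPA and 7 after OA, with 1 higher after OA, and array weights gave 2 lower after OA. In wild-type mice, EPA against OA (2 lower) gave 1 without a filter, 1 without probesets ending in _x_at or _s_at and 1 at an adjusted p under 0.01. DHA against OA (0 higher) gave 2 with the compared groups alone and 1 without the 3 arrays, and EPA against DHA (0 lower) 1 with array weights and 5 at an unadjusted p under 0.01. In PPARα-null mice, EPA against OA (0 lower) gave 1 with array weights, 2 at an unadjusted p under 0.01 and 3 without the 3 arrays, DHA against OA (0 lower) 1 at an unadjusted p under 0.01, and WY14643 against OA (6 higher) 3 with the compared groups alone and 3 at an adjusted p under 0.01. For the difference of genotype differences, WY14643 against OA (13) gave 7 at an adjusted p under 0.01, DHA against OA (0) 1 at an unadjusted p under 0.01, and WY14643 against DHA (4) 2 without a filter, 10 with array weights, 2 with 1 probeset per gene, 12 at an unadjusted p under 0.01, 0 at an adjusted p under 0.01 and 10 without the 3 arrays.

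Leaving out single arrays gave ranges of 18 to 20 lower and 0 to 1 higher after WY14643, 0 to 7 lower after EPA, 11 to 15 after DHA, 0 to 3 after OA, 19 to 25 higher for WY14643 against OA in wild-type mice, 1 to 2 lower for EPA against OA and 0 to 2 for EPA against DHA in wild-type mice. In PPARα-null mice they were 0 to 3 lower for EPA against OA, and 5 to 7 lower and 2 to 8 higher for WY14643 against OA. Differences of genotype differences gave 7 to 14 for WY14643 against OA and 0 to 7 for WY14643 against DHA. The arrays that moved these most were PPARα-null EPA replicate 5 (7 after EPA without it), PPARα-null OA replicate 1 (3 after OA), PPARα-null WY14643 replicate 3 (2 higher for WY14643 against OA), and wild-type WY14643 replicate 2 or 3 (0 for WY14643 against DHA).

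With a replicate block the counts were 19 after WY14643, 0 after EPA, 14 after DHA, 0 after OA, 22 for WY14643 against OA in wild-type mice, 2 for EPA against OA, 13 for the difference between WY14643 and OA, and 3 for that between WY14643 and DHA. Nothing states that arrays of the same number share more than it, and in no pair of groups compared did every array correlate best with its own number. No member reversed direction where called. Over single members, 1469 of the values under other settings stayed on their side of the threshold, 72 passed it and 47 dropped out, and on leaving out 1 array these were 1005, 17 and 113. Dim members such as Acsm3, Acad10 and Acads are limited by signal near the level counted as expressed. The causes were not tested.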
